A study of Mus musculus with 8 samples.

Results

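The genes described here are 10 markers of hepatic stellate cells and of liver sinusoidal endothelium, of 36062 genes that could be tested on at least 1 of the slides. They were taken by gene name from the array files, and 1 old name was replaced through its accession (a Lyve1 probe is called Xlkd1 on the first slide). The 6 stellate genes are Des, Lrat, Reln, Dcn, Col1a1 and Col3a1, and the 4 endothelial genes are Stab1, Stab2, Lyve1 and Pecam1. The study asked how bone marrow (BM) progenitors come to express hepatocyte genes after transplantation. The markers are read here as signs of other cells in each preparation, of liver or of marrow.

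RNA was measured on 8 single-colour arrays in 4 groups of 2 arrays. Lin- BM cells came from female eGFP transgenic mice (C57Bl6/J-Tg(UBCGFP)30Scha/J) aged 6 to 8 weeks, after magnetic depletion of cells that carry markers of mature blood lineages. BM-derived hepatocytes were collected 1 month or 5 months after such Lin- eGFP cells had been given to male hemophilia A mice (allele F8tm1Kaz, on a mixed-strain background unlike that of the donors), 6 to 8 weeks old, with acetaminophen liver injury. Their livers were perfused with collagenase, hepatocytes were spun down at low speed, and donor cells were sorted on eGFP. The paper identified the sorted cells as hepatocytes by albumin staining. In liver sections at 5 months it reports no vimentin in engrafted donor cells, and CD45 on a few donor-derived non-parenchymal cells. eGFP in these donors is driven by the ubiquitin C promoter, so eGFP itself is not confined to hepatocytes. Primary hepatocytes are the untransplanted hepatocyte group, for which the age and genotype of the mice are not given in the sources used here. The figure legend states that cells of 3 mice were pooled for each experiment, and no source used here says whether the 2 arrays of a group come from separate pools. P-values measure only the spread between these arrays, which may be technical.

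Stellate cells lie between hepatocytes and the sinusoid wall. At rest they store vitamin A as retinyl esters, and after injury they can become collagen-producing myofibroblasts. Sinusoidal endothelial cells form a fenestrated wall without a continuous basement membrane and clear waste macromolecules from blood through scavenger receptors. Both lie next to hepatocytes along the sinusoid and are not parenchymal cells. In a bulk preparation, fewer cells of a type and less RNA per cell cannot be told apart.

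Lin- BM cells and 1-month hepatocytes were on the first slide, primary and 5-month hepatocytes on the second, and the slides carry different array designs scanned on different days. The 10 genes had 16 probes on the first slide and 12 on the second. A probe of identical sequence on both designs was found for 6 of them: Des, Lrat, Dcn, Col3a1, Stab1 and Lyve1. Levels across slides are given for those 6 alone, and slide and group cannot be told apart there. A level is the log2 signal of a probe relative to the 75th percentile of its array, so 0 is the signal of a moderately bright probe, and levels of different probes are not compared with each other. A probe was called well above background when the scanner software marked it so. Between 47.7% and 58.6% of spots on an array met this, and 75th percentile signals were 75.5 and 89.5 at 1 month against 122.2 to 193.4 on the other arrays. Labels were checked against marker lists. Summed signals of 11 hepatocyte genes were 0.639 and 0.520 times the 75th percentile in Lin- BM cells and 4290 and 4094 at 1 month, while those of 10 blood progenitor genes were 758.8 and 784.9 in Lin- BM cells and 4.59 and 7.02 at 1 month.

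The probes are 60 bases long and have the sense of the transcript. Those that decide which slides can be compared are printed here 5′ to 3′. The Des and Dcn probes are the same on both designs, and the capitals mark a stop codon near the 3′ end. It is the first stop in its reading frame, but each probe also has a frame with none, and no protein sequence was used to settle which frame applies.
Des: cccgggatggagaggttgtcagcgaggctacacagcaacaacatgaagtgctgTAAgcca
Dcn: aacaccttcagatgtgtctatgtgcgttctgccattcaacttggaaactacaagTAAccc
In mm9, the build named in the array files, the Des probe is placed on the + strand at chr1:75363404-75363629, a span of 226 bases for a 60-base probe, and the Dcn probe on the + strand at chr10:96980233-96980292. The other shared probes were placed at chr3:82696805-82696864 for Lrat, chr7:117994171-117994230 for Lyve1 and chr14:31952288-31952347 for Stab1, all on the - strand, and at chr1:45405589-45405648 on the + strand for Col3a1. Exon and intron annotation of that build was not used here.

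Pecam1 was read by a different probe on each design, which is why its levels are given within slides. Each probe has at least 1 reading frame without a stop.
Pecam1, first slide: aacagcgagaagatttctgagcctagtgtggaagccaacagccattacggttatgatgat
Pecam1, second slide: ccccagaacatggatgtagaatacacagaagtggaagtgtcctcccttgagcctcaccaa
The second-slide Pecam1 probe is placed on the - strand at chr11:106540864-106540923 (mm9). Col1a1 had 3 probes on the first slide, and the 2 that were not used in the fit are shown because the arrays fell in the same order on all 3.
Col1a1, probe 2: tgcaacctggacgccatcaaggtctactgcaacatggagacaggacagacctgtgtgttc
Col1a1, probe 3: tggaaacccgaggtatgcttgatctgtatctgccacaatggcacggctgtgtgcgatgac
The Col1a1 probe used in the fit of the first slide and the only one of the second share a stretch of 20 bases, tgaccaactgaacgtgacca, the end of the former and the start of the latter. They are neighbouring, not identical, and were not set against each other. Reln and Stab2 also had no probe in common.

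At 1 month, 5 of the 9 genes that could be tested were higher than in Lin- BM cells and 2 were lower. Stab1, Stab2, Lyve1, Lrat and Reln rose, and Col1a1 and Pecam1 fell. Dcn and Col3a1 did not pass the test, and Des was not well above background on any of the 4 arrays. Calls needed a limma p below 0.05 after Benjamini-Hochberg adjustment over all genes, and a log2 difference beyond 0.6. In this comparison 55.3% of all 28535 genes tested were called, 28.8% as higher and 26.5% as lower, so 7 calls among 9 genes stand against a high background. Lrat, Lyve1, Col1a1 and Pecam1 passed the filter on dim probes through the group in which they are high and through no other. A difference between the groups was thus built into their selection. With the normexp background correction, which adds an offset of 50, differences of the dim genes shrink, and the values are given with each gene. The median log2 difference was 2.83 over the 9 genes and 0.07 over all genes.

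**Figure D1:**
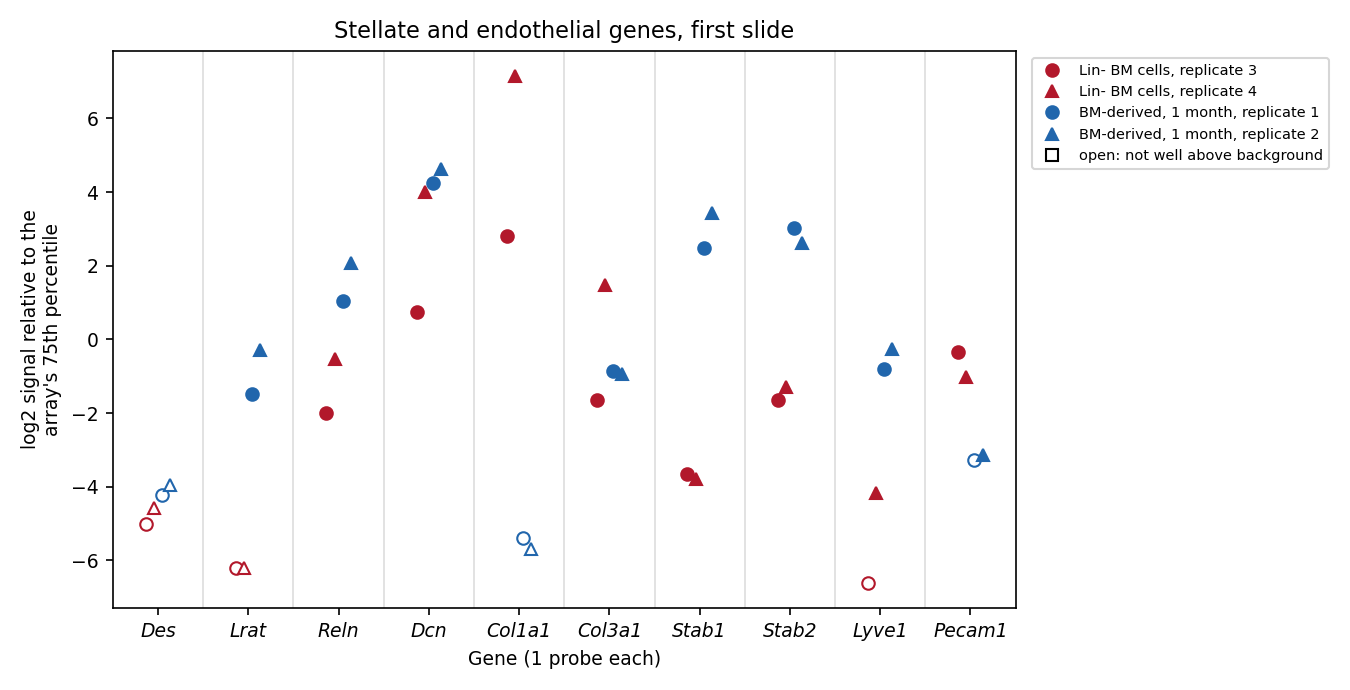
Levels of the 10 genes on the first slide (y axis, log2 signal relative to the 75th percentile of the array; x axis, gene, 1 probe each), 1 point per array and open where the probe was not well above background. Stab1, Stab2, Lyve1, Lrat and Reln lie higher in both 1-month arrays than in both Lin- BM cell arrays, and replicate 4 of Lin- BM cells lies above replicate 3 for Dcn, Col1a1 and Col3a1. Heights of different genes are not comparable.

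Stab1 and Stab2 encode stabilins, large scavenger receptors of sinusoidal endothelium that take up hyaluronan and other ligands. Stab1 had levels of -3.64 and -3.78 in Lin- BM cells and 2.48 and 3.42 at 1 month. The groups did not overlap, and the log2 difference was 6.66 (SE 0.39, n = 2 per group, limma adjusted p = 0.000438), about 101.2-fold. With normexp it was 4.14. Its other probe on this slide was well above background on replicate 2 at 1 month and on no other array. Stab2 had levels of -1.64 and -1.28 in Lin- BM cells and 3.02 and 2.62 at 1 month, a log2 difference of 4.28 (SE 0.31, limma adjusted p = 0.000725), or 2.99 with normexp. Both stabilins were well above background on both Lin- BM cell arrays.

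Lyve1, the hyaluronan receptor of lymphatic and sinusoidal endothelium, had levels of -6.60 and -4.17 in Lin- BM cells and -0.80 and -0.27 at 1 month. In Lin- BM cells replicate 4 alone was well above background. The groups did not overlap, with a log2 difference of 4.85 (SE 0.83, limma adjusted p = 0.00811), or 1.63 with normexp. The older Lyve1 probe was not well above background on any of the 4 arrays. Pecam1, the junctional adhesion molecule CD31, which is also carried by platelets and many blood cells, had the opposite order. Its levels were -0.34 and -1.02 in Lin- BM cells and -3.26 and -3.13 at 1 month, where replicate 2 alone was well above background. The log2 difference was -2.52 (SE 0.34, limma adjusted p = 0.00401), and the groups did not overlap. With normexp it was -0.60 and was not called. Beside this, 8 of 9 megakaryocyte and platelet genes tested were lower at 1 month (26.5% of all genes were), with summed levels of 66.0 and 175.7 in Lin- BM cells and 1.48 and 1.28 at 1 month. Of these, Gp5, Gp9, Itga2b and Ppbp were not well above background at 1 month and passed the filter through Lin- BM cells alone. The part of the platelet genes in the Pecam1 difference was not tested.

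Lrat encodes lecithin retinol acyltransferase, which makes the retinyl esters that stellate cells store. Its levels were -6.20 and -6.21 in Lin- BM cells, not well above background, and -1.49 and -0.28 at 1 month. The log2 difference fitted from the signals as measured was 5.32 (SE 0.46, limma adjusted p = 0.00123). The rise was at least 12.2-fold when the dimmest signal accepted as above background is put in place of the Lin- BM cell value. With normexp it was still called, at a log2 difference of 1.65, a smaller fold than that bound. A further Lrat probe was not well above background on any array of the slide. Reln encodes reelin, a secreted glycoprotein made by stellate cells in liver. Its levels were -1.98 and -0.54 in Lin- BM cells and 1.04 and 2.09 at 1 month, all well above background and without overlap. The log2 difference was 2.83 (SE 0.62, limma adjusted p = 0.0167), or 1.94 with normexp. It was not called without Lin- BM cell replicate 3, when it was 2.11, or without 1-month replicate 2, when it was 2.30.

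The matrix genes behaved differently from these. Col1a1, the alpha 1 chain of type I collagen, had levels of 2.80 and 7.15 in Lin- BM cells and -5.38 and -5.68 at 1 month, where it was not well above background. The signals as scanned were 1338 and 24948 against 1.8 and 1.7. The log2 difference fitted from the signals as measured was -10.50 (SE 1.41, limma adjusted p = 0.00409). As a bound, the fall was at least 361.1-fold from the mean of the Lin- BM cell arrays. It was at least 80.0-fold from replicate 3 alone and at least 1630-fold from replicate 4 alone. With normexp the log2 difference was -5.96, a smaller fold than the bound from the mean. Probe 2 had levels of -2.67 and 2.85 in Lin- BM cells and was not above background at 1 month, at least 12.2-fold lower. Probe 3 was well above background on Lin- BM cell replicate 4 alone, at -1.23. All 3 probes had replicate 4 as the highest array.

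Col3a1, the chain of type III collagen, had levels of -1.65 and 1.48 in Lin- BM cells and -0.87 and -0.93 at 1 month, so the 1-month arrays lay between those of Lin- BM cells. The log2 difference was -0.81 (SE 1.03, limma adjusted p = 0.527). It was -2.38 and called as lower without Lin- BM cell replicate 3, and 0.75 and not called without replicate 4. Its other probe was not well above background on any of the 4 arrays. Dcn encodes decorin, a small proteoglycan that binds collagen fibrils. Its levels were 0.74 and 4.01 in Lin- BM cells and 4.26 and 4.64 at 1 month, which do not overlap, with a log2 difference of 2.07 (SE 1.08, limma adjusted p = 0.159). Without Lin- BM cell replicate 4 the difference was 3.71 and was called, and without replicate 3 it was 0.44 and was not.

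Des encodes desmin, the intermediate filament of muscle and of stellate cells. Its levels of -5.00 and -4.56 in Lin- BM cells and -4.23 and -3.95 at 1 month were not well above background, and it was not tested on this slide. An unchanged and a changed desmin level cannot be told apart here at this signal.

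The replicates of Lin- BM cells stood apart for these matrix genes. Replicate 4 was 20.4 times as high as replicate 3 for Col1a1, 9.60 times for Dcn and 8.75 times for Col3a1, and 5.38 times for Lyve1. Over all 28529 genes with values on both arrays, 1.93% differed by more than 2 on the log2 scale, and 13747 were higher in replicate 4. Collagen chains other than these and collagen processing genes were higher in replicate 4 for 18 of 20 tested, with a median log2 difference of 1.35. The 11 marrow stroma and bone markers had a summed level of 51.5 in replicate 3, with 10 well above background, and 164.5 in replicate 4, with all 11 well above background. Leukocyte markers ran the other way, with summed levels of 733.2 in replicate 3 and 205.3 in replicate 4. Other stellate and fibroblast genes were not higher in replicate 4 as a list. Their summed levels were 198.0 in replicate 3 and 105.6 in replicate 4, and 8 of 18 tested were higher in replicate 4. What part marrow stroma had in the collagen and decorin values was not tested.

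**Figure D2:**
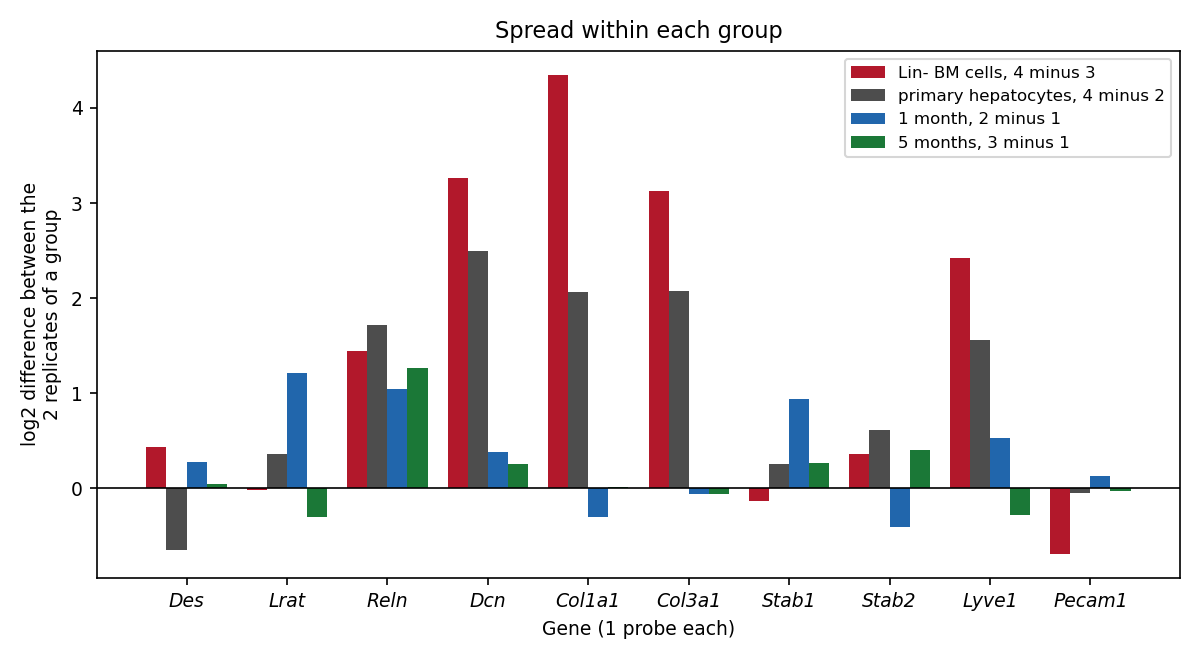
Difference between the 2 replicates of each group for each of the 10 genes (y axis, log2; x axis, gene, 1 probe each), 1 bar per group with no error, since each is a difference of 2 arrays. The bars of Lin- BM cells reach 4.35 for Col1a1 and 3.26 for Dcn, and those of primary hepatocytes 2.50 for Dcn, whereas Stab1 and Stab2 differ by less than 1 in every group.

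At 5 months, none of the 9 tested genes was called against primary hepatocytes by limma, which called 0.552% of all 19933 genes. Unadjusted p-values were under 0.05 for 3 of the 9 and for 14.1% of all genes. The median log2 difference was 0.57 over the 9 genes and 0.04 over all. The stabilins, Lrat and Pecam1 had close group means, and the matrix genes and Lyve1 had higher means at 5 months, with replicate 2 of primary hepatocytes as the lowest array.

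**Figure D3:**
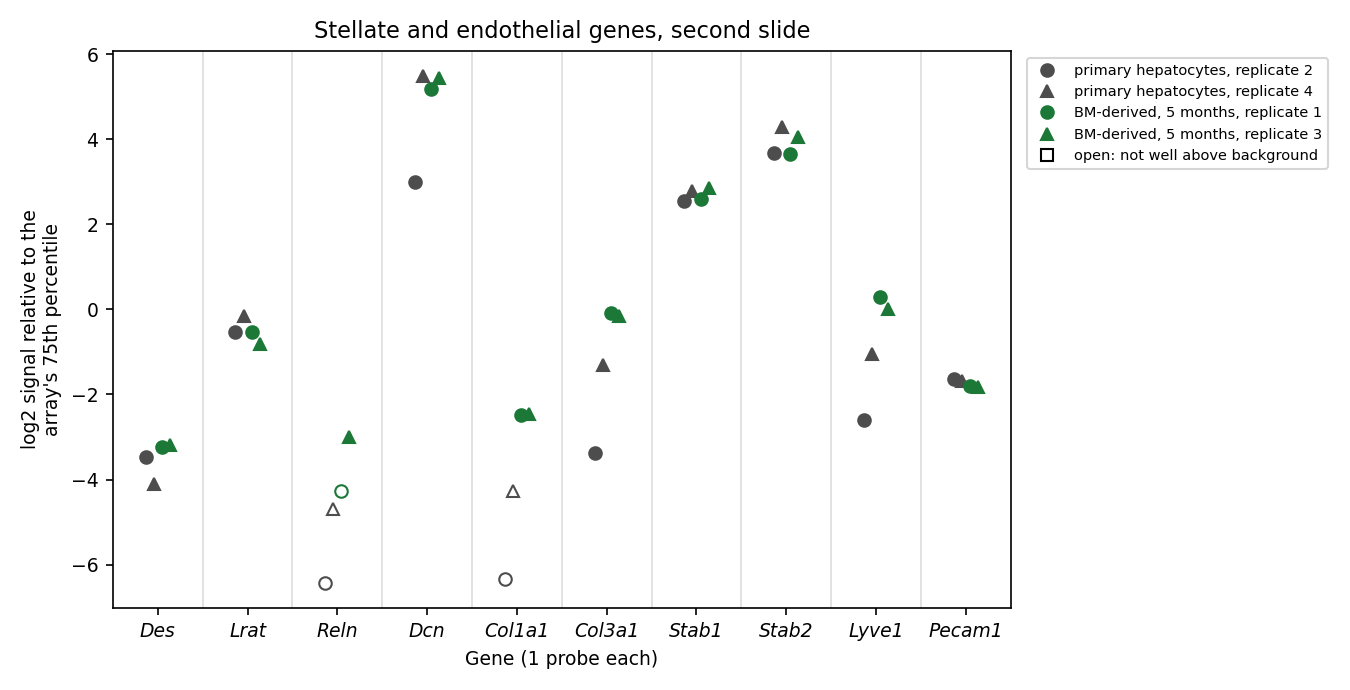
Levels of the 10 genes on the second slide (y axis, log2 signal relative to the 75th percentile of the array; x axis, gene, 1 probe each), 1 point per array and open where the probe was not well above background. Stab1 and Stab2 lie between 2.54 and 4.29 on all 4 arrays, and replicate 2 of primary hepatocytes is the lowest array for Dcn, Col1a1, Col3a1 and Lyve1.

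Stab1 had levels of 2.54 and 2.79 in primary hepatocytes and 2.59 and 2.85 at 5 months. These overlapped, with a log2 difference of 0.05 (SE 0.23, limma adjusted p = 0.940). Stab2 had levels of 3.68 and 4.29 in primary hepatocytes and 3.65 and 4.06 at 5 months, a log2 difference of -0.13 (SE 0.32, limma adjusted p = 0.886). Its other 2 probes, placed at chr10:86455257-86455316 and chr10:86381487-86381546 (mm9, - strand) against chr10:86303982-86304041 for the first, differed by 0.86 and 0.22 in the other direction. The 3 Stab2 probes thus disagreed in sign, and none was called. Pecam1 had the smallest range of the 10 over the 4 arrays of this slide, at -1.65 and -1.69 in primary hepatocytes and -1.80 and -1.82 at 5 months (log2 difference -0.14, SE 0.20, limma adjusted p = 0.798).

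Lyve1 had levels of -2.59 and -1.04 in primary hepatocytes and 0.29 and 0.01 at 5 months. The groups did not overlap, but the log2 difference of 1.96 (SE 0.57, limma adjusted p = 0.277) was not called. It was 2.74 without primary hepatocyte replicate 4 and 1.19 without replicate 2. Lrat had levels of -0.53 and -0.16 in primary hepatocytes and -0.52 and -0.82 at 5 months, which overlap (log2 difference -0.33, SE 0.25, limma adjusted p = 0.620). Reln was read by a probe of its own on this slide at chr5:21404915-21404974 (mm9, - strand). That probe was well above background on 5-month replicate 3 alone, so it was not tested.

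Dcn had levels of 2.99 and 5.49 in primary hepatocytes and 5.18 and 5.44 at 5 months, which overlap. The log2 difference was 1.08 (SE 0.87, limma adjusted p = 0.636). Col3a1 had levels of -3.38 and -1.31 in primary hepatocytes and -0.10 and -0.15 at 5 months, without overlap (log2 difference 2.22, SE 0.73, limma adjusted p = 0.313). Col1a1, at chr11:94813115-94813174 (mm9, + strand), was not well above background in primary hepatocytes, with levels of -6.33 and -4.26, and was so on both 5-month arrays, at -2.48 and -2.47. Its level was at least 3.52-fold higher at 5 months by the same kind of bound. The fitted log2 difference was 2.82 (SE 0.73, limma adjusted p = 0.241). Col1a1 passed the filter on dim probes through the 5-month group alone, so a difference was built into its selection. Des, with 10 spots per array on this design, was well above background on all 4 arrays at low levels of -3.46 and -4.11 in primary hepatocytes and -3.23 and -3.19 at 5 months. Its log2 difference was 0.57 (SE 0.29, limma adjusted p = 0.473).

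How many of these genes were called at 5 months depended on which primary hepatocyte array was kept. Calls of Col1a1 are no separate support for a difference, because its selection through the 5-month group had built one in. Without replicate 4, Dcn, Col1a1, Col3a1 and Lyve1 were called, all higher at 5 months, and without replicate 2, Col1a1 alone was. Leaving out either array of primary hepatocytes also raised the calls over all genes, from 110 to 1624 without replicate 4 and 1533 without replicate 2. Replicate 4 exceeded replicate 2 by 5.66 times for Dcn, 4.21 times for Col3a1 and 2.94 times for Lyve1, while Stab1 differed by 1.19 times and Stab2 by 1.53 times. Over all 19930 genes, 4.30% differed by more than 2 on the log2 scale between these arrays, and 10665 were higher in replicate 4. Other stellate and fibroblast genes were higher in replicate 4 for 15 of 17 tested, other endothelial genes for 16 of 25, and the 11 Kupffer cell markers for all 11. Summed Kupffer cell levels were 36.9 and 78.5 in primary hepatocytes and 137.6 and 136.5 at 5 months, with all 11 well above background on each array. Bile duct markers Krt7, Krt19, Epcam and Cldn4 were not well above background on any of these 4 arrays. The part of other cell types in these values was not tested.

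**Figure D4:**
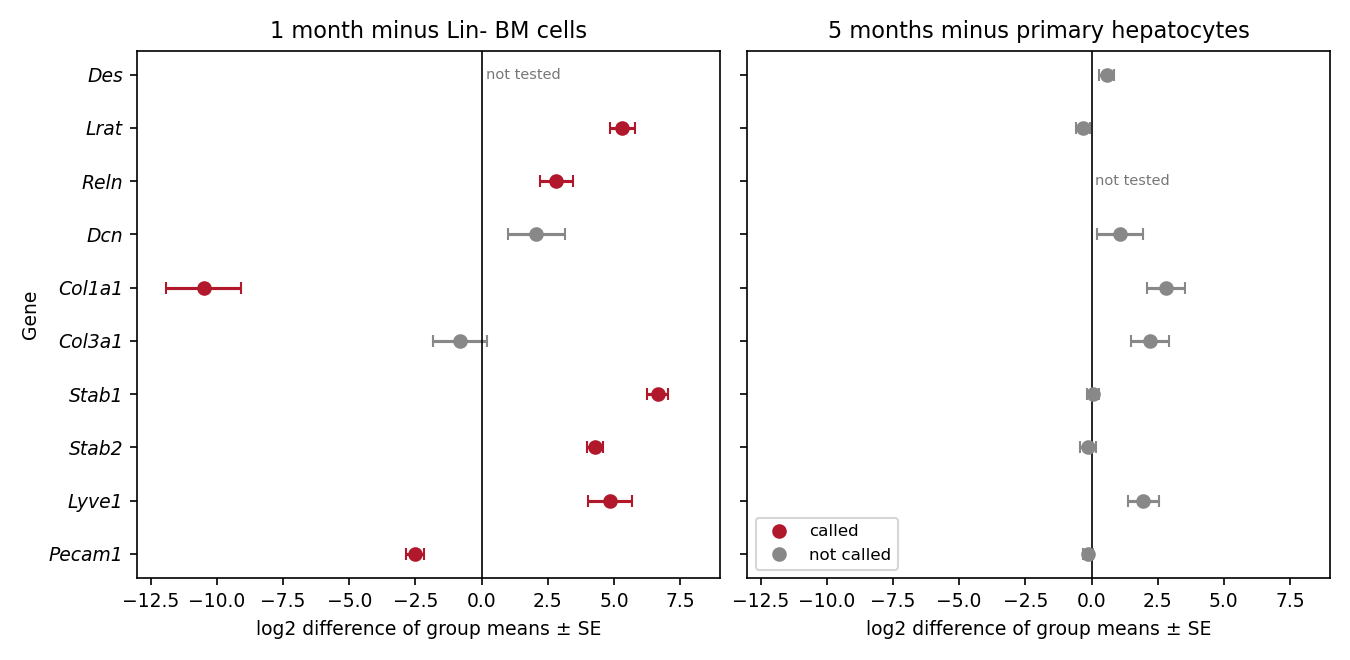
Log2 differences of group means with standard errors for the 9 genes tested in each within-slide comparison (x axis, log2; y axis, gene), called genes in red, with Col1a1 and Lrat fitted against a group that was not well above background. At 1 month 7 genes are called against Lin- BM cells, and at 5 months none is called against primary hepatocytes. Des and Reln each miss 1 comparison because no probe passed the filter on dim signals.

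The 6 genes with a shared probe were then set side by side over all 4 groups, with levels relative to the 75th percentile of the shared probes. Stab1, Lrat and Lyve1 were higher in primary hepatocytes than in Lin- BM cells, which was 3 of 6, beside 67.3% of all 9251 genes called in that comparison (29.3% as higher). At 5 months the same 3 genes and Des were higher than in Lin- BM cells, 4 of 6, beside 67.0% of all genes (29.3% as higher). These comparisons and that of the first slide share the Lin- BM cell arrays, so they are not independent of each other. Lrat, Lyve1 and Des passed the filter on dim probes through hepatocyte groups and not through Lin- BM cells. A difference from Lin- BM cells was thus built into the selection of these genes here too.

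**Figure D5:**
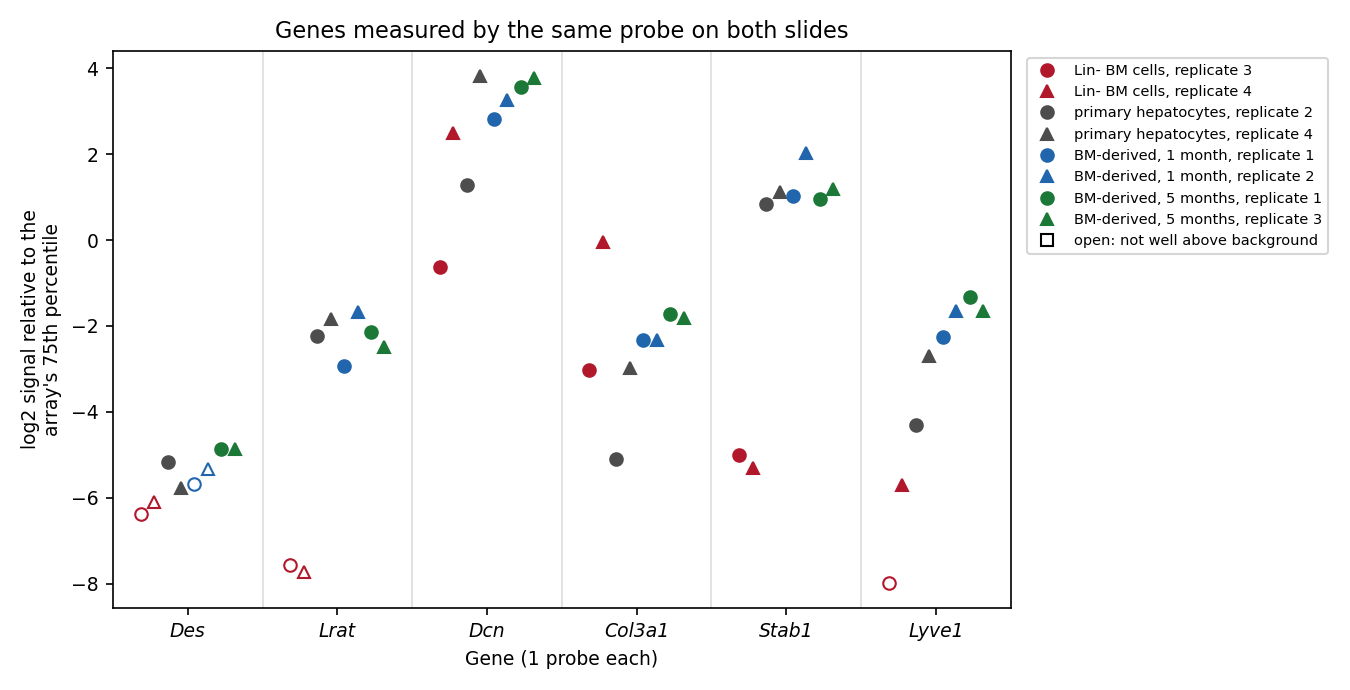
Levels of the 6 genes read by a probe of identical sequence on both designs (y axis, log2 signal relative to the 75th percentile of the shared probes; x axis, gene), 1 point per array and open where not well above background. All 6 hepatocyte arrays lie above both Lin- BM cell arrays for Stab1, Lrat and Lyve1, and the arrays of Lin- BM cells and primary hepatocytes spread widely for Dcn and Col3a1.

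Stab1 on this scale was -5.01 and -5.30 in Lin- BM cells, 1.03 and 2.03 at 1 month, 0.83 and 1.12 in primary hepatocytes and 0.96 and 1.18 at 5 months. The order of group means was 1 month, 5 months, primary hepatocytes and Lin- BM cells, and the first 3 overlap. The log2 difference from Lin- BM cells was 6.13 in primary hepatocytes (SE 0.36, limma adjusted p = 1.8e-05) and 6.23 at 5 months (SE 0.36, limma adjusted p = 1.8e-05). With normexp these were 3.74 and 3.82.

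Lrat was -7.57 and -7.73 in Lin- BM cells, -2.94 and -1.67 at 1 month, -2.23 and -1.83 in primary hepatocytes and -2.15 and -2.49 at 5 months. Every hepatocyte array was well above background and neither Lin- BM cell array was. The 3 hepatocyte groups overlapped one another. The fitted log2 difference from Lin- BM cells was 5.62 in primary hepatocytes (limma adjusted p = 5.6e-05). At 5 months it was 5.34 (limma adjusted p = 7.6e-05). As bounds, Lrat was at least 14.3-fold higher in primary hepatocytes and at least 11.7-fold higher at 5 months. With normexp the log2 differences were 1.80 and 1.61, both called but smaller folds than those bounds.

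Lyve1 was -7.97 and -5.69 in Lin- BM cells, -2.25 and -1.66 at 1 month, -4.30 and -2.71 in primary hepatocytes and -1.33 and -1.66 at 5 months. Group means were lowest in Lin- BM cells, then in primary hepatocytes, at 1 month and at 5 months. Lin- BM cells lay below all other arrays, primary hepatocytes below both BM-derived groups, and the nearest arrays of the BM-derived groups were both at -1.66. The log2 difference from Lin- BM cells was 3.33 in primary hepatocytes (SE 0.81, limma adjusted p = 0.00989) and 5.33 at 5 months (SE 0.81, limma adjusted p = 0.00126). With normexp these were 1.00 and 2.01, both called. Without primary hepatocyte replicate 4 the difference of primary hepatocytes was 2.53 and was not called.

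Des was -6.38 and -6.09 in Lin- BM cells and -5.68 and -5.34 at 1 month, not well above background in either. It was -5.17 and -5.78 in primary hepatocytes and -4.86 on both 5-month arrays. At 5 months the fitted log2 difference of Des from Lin- BM cells was 1.37 (SE 0.29, limma adjusted p = 0.00511). As a bound, Des was at least 2.01-fold higher. With the normexp correction, however, the log2 difference was 0.55 and was not called. The probe has 1 spot on the first design and 10 on the second.

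Dcn was -0.63 and 2.49 in Lin- BM cells, 2.81 and 3.25 at 1 month, 1.28 and 3.82 in primary hepatocytes and 3.56 and 3.77 at 5 months. It was well above background on all 8 arrays, and the wide spread in Lin- BM cells and primary hepatocytes left no group difference called. Its difference from Lin- BM cells at 5 months was 2.74 (SE 1.13, limma adjusted p = 0.0692). It was 4.29 without Lin- BM cell replicate 4 and 1.18 without replicate 3. Col3a1 was -3.02 and -0.04 in Lin- BM cells, -2.32 on both 1-month arrays, -5.09 and -2.98 in primary hepatocytes and -1.72 and -1.82 at 5 months. Lin- BM cells thus held the highest array and the second lowest, and no Col3a1 difference was called with all arrays. Against Lin- BM cells, primary hepatocytes differed by -2.50 (SE 1.03, limma adjusted p = 0.0675). The difference was -3.99 without Lin- BM cell replicate 3 and -1.01 without replicate 4.

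No gene of the 6 was called by limma between 1-month and primary hepatocytes, where 16.7% of all genes were, or between 5 months and 1 month, where 17.0% were. Unadjusted p-values under 0.05 numbered 0 of 6 in both, beside 2989 and 3218 of 9251 genes. The fit used 1 spread per gene for all 4 groups. For Col3a1 the SD was 0.07 at 5 months and 0.004 at 1 month. It was 2.11 in Lin- BM cells and 1.49 in primary hepatocytes, and the SE was 1.03. For Dcn the SDs were 0.15 and 0.31, beside 2.20 and 1.79, with an SE of 1.13. The lack of calls for these genes between 5 months and 1 month thus rests on the spread of other groups. The methods' t-test with its adjustment also called 0 of 6 in each. With other processing 1 gene was called in each, Lyve1 at 1 month against primary hepatocytes with normexp and Des at 5 months against 1 month with quantile normalization. Slide and group cannot be told apart in either comparison.

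For each of the 6, the gene with the most similar profile was the one whose levels, centred on their mean, had the smallest root mean square distance from it over the 8 arrays, of 8777 candidates. It was Cyp2c55 for Stab1 (0.27 on the log2 scale, against a range of 7.33 for Stab1 itself), Slc25a15 for Lrat (0.31, range 6.06) and Ackr2 for Lyve1 (0.72, range 6.64). It was Pcolce2 for Dcn (0.45, range 4.44), Nxpe2 for Col3a1 (0.50, range 5.04) and Tmem177 for Des (0.16, range 1.52). All 8 points of each profile come from 4 groups, so a small distance mainly describes the group means.

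Related genes were counted by lists, each to be read beside the 28.8% of all genes called as higher and 26.5% as lower in this comparison. In every list a gene could pass the filter on dim probes through 1 group alone, which builds in its direction. Of the endothelial list, Dnase1l3, Gpr182, Oit3 and Wnt2 were not well above background on either Lin- BM cell array. Of 25 other endothelial genes tested at 1 month against Lin- BM cells, 18 were higher and 2 lower, with a median log2 difference of 4.09 beside 0.07 over all genes. Ptprb, a tyrosine phosphatase of endothelial cells, differed by 7.79 (SE 0.35), from -3.28 ± 0.38 in Lin- BM cells to 4.51 ± 0.38 (SD, n = 2). Clec4g, a lectin of sinusoidal endothelium, differed by 7.77 (SE 0.29), from -2.95 ± 0.31 to 4.82 ± 0.11. At 5 months 0 of the 25 were called against primary hepatocytes, beside 0.552% of all genes. Of the 25, 4 had an unadjusted p under 0.05, beside 14.1% of all genes, and the median was 0.18. Summed levels of this list were 47.9 and 60.7 in Lin- BM cells, 186.7 and 245.6 at 1 month, 165.5 and 163.7 in primary hepatocytes and 191.6 and 207.5 at 5 months, the latter pairs on another slide with probes of its own.

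Of 18 other stellate and fibroblast genes, 10 were higher and 3 lower at 1 month, with a median of 1.67. Colec11, a collectin made in liver, differed by 5.41 (SE 0.37), from -3.07 ± 0.56 to 2.34 ± 0.22 (SD, n = 2). Thy1, a surface protein of fibroblasts that is also carried by T cells and blood progenitors, was lower, from 5.72 ± 1.16 to -3.30 ± 1.34, the latter well above background on 1 of 2 arrays. Retinoid storage and transport genes, the pathway of Lrat, were higher for 6 of 9 tested and lower for 0 (median 3.18), and the largest differences among those measured in both groups were those of Rbp4, the plasma retinol carrier that hepatocytes secrete, and Rarb, a retinoic acid receptor. Rbp4 had mean levels of -4.34 in Lin- BM cells and 10.11 at 1 month and Rarb of -4.19 and 2.10, and each was well above background on 1 of 2 Lin- BM cell arrays.

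Of 20 collagen chains and collagen processing genes tested at 1 month, 6 were higher and 7 lower (median -0.31), shares near those of all genes. Col1a2, the partner chain of Col1a1, fell from 5.30 ± 2.93 to -0.39 ± 0.45 (log2 difference -5.70, SE 1.36, limma adjusted p = 0.0214), and Col5a1 from 2.23 ± 2.10 to -1.82 ± 0.67 (log2 difference -4.05, SE 1.02, limma adjusted p = 0.0252). Of 6 small leucine-rich proteoglycans, the family of decorin, 1 was higher and 1 lower, and the higher one, Prelp, differed by 2.75 (SE 0.55). Of 4 hyaluronan genes, relevant to the stabilins and Lyve1, 2 were higher and 2 lower. Cd44, the hyaluronan receptor of leukocytes, was lower, at mean levels of 4.88 in Lin- BM cells and -2.48 at 1 month, where 1 of 2 arrays was well above background. The hyaluronidase Hyal2 differed by 2.83 (SE 0.58). Of 4 genes of reelin signalling tested, Itga3 was higher by 3.26 (SE 0.46), and 2 were lower, Fyn by a log2 difference of -2.40 (SE 0.33). Of 4 intermediate filament partners of desmin, 1 was lower, the linker Plec, at -1.87 (SE 0.42).

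At 5 months against primary hepatocytes, limma called 0 genes of these lists, beside 0.552% of all 19933 genes. Over all genes, 14.1% had an unadjusted p under 0.05. The lists are short, so no count is read as a result about its list. Unadjusted p-values were under 0.05 for 5 of 17 other stellate and fibroblast genes, 4 of 16 collagen genes, 1 of 5 proteoglycans, 1 of 9 retinoid genes, 1 of 4 hyaluronan genes, 1 of 4 reelin signalling genes and 1 of 4 desmin partners. The lists' median log2 differences were between 0.06 and 0.92, the highest that of the collagen genes, beside 0.04 over all genes.

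Other cell types were counted in the same way at 1 month against Lin- BM cells, beside the same 28.8% and 26.5% of all genes. The same limit of the filter on dim probes applies to them. Kupffer cell markers were higher for 5 and lower for 1 of 11, with summed levels of 4.49 and 10.2 in Lin- BM cells and 12.8 and 50.9 at 1 month, where replicate 1 lies near Lin- BM cell replicate 4. Leukocyte markers were lower for 9 of 12, blood progenitor markers for 9 of 10 and marrow stroma and bone markers for 6 of 10, with 1 of the last higher. At 1 month Adipoq, Bglap, Grem1, Ibsp, Lepr and Sp7 of the marrow stroma list were not well above background on either array. The 2 bile duct markers tested were both higher, and Krt7, Krt19 and Cldn4 were not well above background on any array of the slide.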

How the data were processed

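RNA of 8 samples was hybridized to single-colour Agilent arrays of designs 026986 (first slide) and 028005 (second slide). The deposited files hold, per the file headers, spot intensities after background subtraction by Feature Extraction 11.5.1.1, with mm9 probe positions. The authors also deposited log2 values, shifted to the 75th percentile in GeneSpring GX.

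Intensities of non-control spots were taken to log2 and the 75th percentile of each array was subtracted, over all probes within a slide and over the 13991 shared sequences across slides. Outlier spots (6 to 152 per array) were left out, spots of a probe were averaged, and 0 spots were saturated. A probe entered the fit when both arrays of some group marked it well above background, and the probe of highest mean stood for its gene. Array precision is limited by 2 arrays per group, and an exact permutation test of 2 against 2 cannot go below p = 0.333, so groups were compared with limma 3.58.1 (R 4.3.3) and Benjamini-Hochberg adjustment, first within slides (4 arrays) and then over 8 arrays. Bounds put the dimmest signal accepted as above background in place of a dim group, and they apply to the main processing alone. The p-values belong to the fitted differences and not to the bounds. Tables and figures were made in Python 3.11.15. The fit was tested on simulated data. Names came from the files and a RefSeq table (GRCm38.p6), whose coordinates were not used. The named genes are all 10 members, up to 2 called genes with the largest difference per list (measured on at least 1 array of each group), and the nearest profile per shared probe. Alternatives were normexp (offset 50), quantile normalization, no filter, probe means, the deposited log2 values, the percentile over all probes, the methods' t-test, the shared probes and each array left out. The members and lists were chosen with earlier results of these data known.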

Additional observations from a re-analysis of the deposited data

How the results depend on the processing

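No paired analysis was possible because no 2 groups compared shared more than 1 replicate number. At 1 month against Lin- BM cells, 7 genes were called, 6 to 8 with 1 array left out, 2 by the methods' t-test after Benjamini-Hochberg (Stab1 and Stab2), and 3 with the shared probes in 1 fit or with slide as a block, where 6 genes could be tested. At 5 months against primary hepatocytes 0 were called, and 0 to 4 with 1 array left out (1 without primary hepatocyte replicate 2, 4 without replicate 4). Over all alternatives, calls against Lin- BM cells with shared probes ranged from 2 (the methods' t-test) to 4 for primary hepatocytes and from 3 (the t-test after adjustment) to 5 at 5 months, and with 1 array left out from 3 to 4 and 4 to 5. With normexp 4 were again called at 5 months, with Dcn in place of Des. With normexp 1 gene was called at 1 month against primary hepatocytes, and with quantile normalization 1 at 5 months against 1 month. Signs turned, none of a gene called with all arrays, for Col3a1 against Lin- BM cells with 1 array left out (-2.38 to 0.75 at 1 month and -1.73 to 1.25 at 5 months), and at 5 months against primary hepatocytes for Stab2 with the mean of its probes (0.32), and without 1 array for Stab2 (range -0.44 to 0.17), Stab1 (-0.077 to 0.19) and Dcn (-0.17 to 2.33). The causes were not tested. For single genes, 325 alternative values kept direction and call, 15 lost the call, 16 gained it and 8 turned sign. Calls over all genes at 1 month against Lin- BM cells were 26463 without the filter, 4571 by the adjusted t-test, 5786 over shared probes and 9778 to 12630 with 1 array left out. At 5 months against primary hepatocytes they were 38 without the filter, 1363 by the unadjusted t-test, 0 after adjustment and 0 to 1624 with 1 array left out. By the adjusted t-test they were 2497 and 3322 for primary and 5-month hepatocytes against Lin- BM cells, 2 at 1 month against primary hepatocytes and 14 at 5 months against 1 month. For the last comparisons normexp gave 2435 and 2701, no filter 3999 for the former, and leaving out 1 array 531 to 999 and 316 to 759. The median log2 difference of all genes at 1 month against Lin- BM cells was 0.07, and 0.37 with normexp. Across slides it was -0.29 for primary hepatocytes against Lin- BM cells, and -0.05 with the percentile over all probes of a design, under which Des was called (1.00). Signals of Des, Reln on the second slide and Col1a1 in hepatocytes lie near background, which limits what can be said of them.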
